A study of Mus musculus with 2 samples.

Results

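Transcripts of 39 cell cycle genes were followed across the white blood cells of the mouse lung. The genes were the rows of both count matrices whose symbol stood on a list of cell cycle genes, and all 39 were found among the 31053 genes measured. The list held 14 genes of DNA replication (the S part), 22 genes of the G2 phase and of mitosis (the G2/M part) and 3 genes, Stmn1, Hmgb2 and Tubb5, that resting cells also transcribe. For each cell the UMIs (unique molecular identifiers, each standing for one captured transcript) of the S part and of the G2/M part were summed separately, and the 3 broad genes were left out of these sums.

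The study asked how diesel exhaust particles (DEP, soot given off by diesel engines) act on the recruitment of monocytes to the lung. One library came from mice labelled Ccr2-/- (KO), CD45.1+, with no treatment. The other came from mice labelled Ccr2-/- (KO), CD45.3+, that breathed DEP at 500 µg/m³ by whole-body inhalation for 1 hour per day on 5 days per week over 2 weeks. Ccr2 encodes a chemokine receptor needed for classical monocytes to exit bone marrow, and both libraries carried the knockout label, while the series design also names C57BL/6J wild-type mice. Ccr2 was detected in both libraries labelled Ccr2-/-, with UMIs in 343 of 374 classical monocytes (91.7% [88.4 to 94.3]) of the control and 568 of 580 (97.9% [96.4 to 98.9]) of the exposed library, beside 1.01% and 0.685% of neutrophils. Its transcripts thus go against the knockout label, unless the 3′ tags lie outside the deleted part of the gene, which is not given in the sources used here. No direction below is drawn from the genotype. In both, cells positive for the leukocyte surface protein CD45 were sorted by flow cytometry from perfused lungs digested with collagenase and DNase. Neither the age of the mice nor whether a library pooled several of them was given in the sources used here.

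Each group held 1 library. No test between groups was therefore possible, and exposure cannot be told apart from any other difference between the mice, their labels, the sorts or the runs. Square brackets hold 95% intervals that cover counting error only. They treat UMIs as independent, although the UMIs of a cell cycle gene sit in a small number of cells, so intervals on summed UMIs are too narrow. The libraries held 62047730 (control) and 67030914 (exposed) UMIs, 23 barcodes occurred in both, and 8940 and 8690 cells were kept after filtering and doublet removal. Their median depth was 3672 and 4150.5 UMIs. Cells were grouped into 28 clusters with the cell cycle genes left out of the clustering, and classes such as T cell below mean cells like that type by their marker genes. Throughout, a pair of values gives the control library first and the exposed library second.

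A dividing cell copies its DNA in S phase and separates the copies in mitosis after a gap, G2. Genes for the replication machinery are switched on by E2F transcription factors once the retinoblastoma protein Rb lets go of them. Genes for mitosis come on later, through a complex that contains MuvB and binds promoters at a CHR element, often beside CCAAT boxes. In the lung, alveolar macrophages and some dendritic cells renew themselves locally, whereas neutrophils arrive from the bone marrow already unable to divide.

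The S part and the G2/M part differed in CHR and E2F letters of their promoters. The stretches below show these and the CCAAT letters for genes that the results turn on. RefSeq promoters (GRCm38.p6), 250 bases before to 50 bases after the start of the gene, were matched for 32 of the 39 genes. Gins2, Mcm4, Aurkb, Ccna2, Kif20a, Tpx2 and Stmn1 had no match. Both strands were searched. The CCAAT box was read as CCAAT. The first CHR form was TTTGAA, a second form was written TTCGAA and the last form searched was TTTAAA. The first E2F form was TTCCCGC, another form read TTGGCGC, a further form was TTCGCGC and the last of these forms was TTGCCGC. A base could belong to more than one match. Each sequence lies upstream of the start, on the strand of the gene from 5′ to 3′. In the 3 G2/M genes the capitals mark CHR and CCAAT letters, where ATTGG is CCAAT read on the other strand, and in the 2 S genes they mark E2F letters on either strand, which overlap in places.
Ccnb2 (chr9:70421563-70421729, minus strand): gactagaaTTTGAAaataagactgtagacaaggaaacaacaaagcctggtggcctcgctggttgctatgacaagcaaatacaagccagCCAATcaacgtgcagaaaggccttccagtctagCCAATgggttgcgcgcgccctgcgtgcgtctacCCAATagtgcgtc
Mki67 (chr7:135716464-135716575, minus strand): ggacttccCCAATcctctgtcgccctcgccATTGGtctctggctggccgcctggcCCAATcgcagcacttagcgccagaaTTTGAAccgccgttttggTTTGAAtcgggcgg
Plk1 (chr7:122159338-122159433, plus strand): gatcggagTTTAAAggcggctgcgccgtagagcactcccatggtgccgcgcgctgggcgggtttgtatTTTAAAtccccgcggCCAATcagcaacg
Mcm5 (chr8:75109337-75109374, plus strand): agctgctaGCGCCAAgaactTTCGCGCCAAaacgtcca
Mcm6 (chr1:128359734-128359822, minus strand): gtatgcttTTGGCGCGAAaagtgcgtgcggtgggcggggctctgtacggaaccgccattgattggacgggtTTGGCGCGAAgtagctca

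CHR letters were found in 17 of the 18 G2/M genes with a promoter (94.4%), in 6 of the 12 S genes (50%) and in 31.9% of the 27025 genes in the promoter table. CHR and CCAAT letters together were found in 16 of the 18 G2/M genes (88.9%), in 5 of the 12 S genes (41.7%) and in 12.8% of all genes. CCAAT letters, with or without CHR, were frequent in both parts. They were found in 16 of the 18 G2/M genes (88.9%), in 9 of the 12 S genes (75%) and in 41.1% of all genes. E2F letters showed the opposite order, with 8 of the 12 S genes (66.7%), 4 of the 18 G2/M genes (22.2%) and 10.9% of all genes. Top2a and Ube2c each held 6 CCAAT matches, and Mcm6 held 5 E2F matches. Nusap1 was the G2/M gene without CHR letters, and it held none of the other letters either. A match is a run of letters and not a measured binding site.

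Most lung leukocytes held few transcripts of either part, and a small set held very many. Neither part had a UMI in 3510 control cells (39.3% [38.2 to 40.3]) and 3463 exposed cells (39.9% [38.8 to 40.9]). The higher of the 2 sums reached 5 UMIs in 568 control cells (6.35% [5.86 to 6.88]) and 541 exposed cells (6.23% [5.73 to 6.75]), a ratio of exposed to control of 0.980 [0.869 to 1.10]. At this limit the S part alone was high in 290 and 272 cells and the G2/M part in 278 and 269, with ratios of 0.965 [0.815 to 1.14] and 0.995 [0.839 to 1.18]. The intervals of all 3 ratios include 1.

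Many of these cells lay close to the limit. The higher sum was 3 to 4 UMIs in 993 and 1017 cells, 5 to 9 UMIs in 339 and 301 cells and 10 to 19 UMIs in 72 and 99 cells. A further 103 and 87 cells held 50 UMIs or more. A limit of 20 UMIs was therefore added after the distribution had been seen. It was reached by 157 control cells (1.76% [1.49 to 2.05]) and 141 exposed cells (1.62% [1.37 to 1.91]), a ratio of 0.924 [0.731 to 1.17]. No neutrophil of 2762 and 2626 reached 20 UMIs, which allows a share of up to 0.109% and 0.114%. At 5 UMIs, 1 and 3 neutrophils passed, and the median depth of neutrophils was 2677.5 and 2895.5 UMIs.

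**Figure D1:**
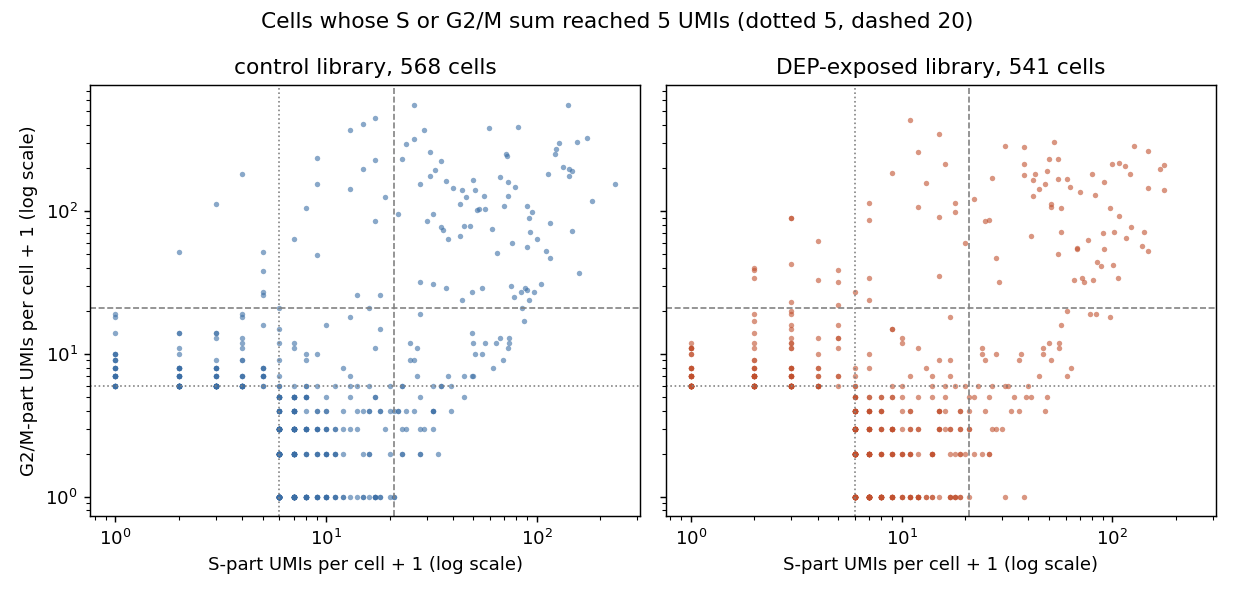
UMIs of the S part (horizontal) and of the G2/M part (vertical) in each cell whose higher sum reached 5 UMIs, plus 1 on log axes, with 568 control cells on the left and 541 exposed cells on the right. Dotted lines mark 5 UMIs and dashed lines 20 UMIs. In both libraries a dense group of cells lies near 5 UMIs, and the cells beyond 20 UMIs spread from S-part sums alone at the lower right through cells high in both parts to G2/M sums alone at the upper left.

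The cells with 20 UMIs or more fell into 3 sets by which part was high. The S part alone reached the limit in 52 and 49 cells, both parts did in 81 and 63 cells, and the G2/M part alone did in 24 and 29 cells. The genes follow these sets in part because they make up the sums, so the shares below describe the order of the genes and test nothing.

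Mcm2 to Mcm7 encode the ring of 6 proteins that opens the DNA double helix at replication origins. Mcm3 was seen in 100% and 98.0% of S-only cells and in 41.7% and 17.2% of G2/M-only cells. Mcm2 was seen in 90.4% and 91.8% of S-only cells and in 20.8% and 3.45% of G2/M-only cells. Pcna, the clamp that holds DNA polymerase on its template, was seen in 62.5% and 48.3% of G2/M-only cells.

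Some other genes of the S part were seen most often in cells high in both parts. Rrm2, the regulated subunit of the enzyme that makes deoxyribonucleotides, was seen in 21.2% and 28.6% of S-only cells but in 88.9% and 96.8% of cells high in both. Rrm1, its partner, was seen in 82.7% and 77.6% of S-only cells. Pclaf, a protein that binds Pcna, was at 80.6 and 157 CPM in S-only cells and at 691 and 843 CPM in cells high in both. CPM are UMIs scaled to the same total for each set of cells that was summed. In both libraries the share of cells with Mcm2, Mcm3, Mcm4 and Mcm6 was highest in S-only cells and that with Rrm1, Rrm2, Tyms, Tk1 and Pclaf in cells high in both.

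Within the G2/M part, Top2a and Mki67 were the genes seen most often in S-only cells. Top2a, the enzyme that untangles DNA, was seen in 57.7% and 65.3% of S-only cells, and Mki67, which coats mitotic chromosomes, in 55.8% and 51.0%. Ube2c, which loads ubiquitin for the anaphase-promoting complex, was seen in 5.77% and 4.08% of S-only cells, in 76.5% and 87.3% of cells high in both and in 100% of G2/M-only cells of both libraries. Kif20a, a motor of the late spindle, was seen in none of the S-only cells of either library, and in 70.8% and 58.6% of G2/M-only cells. Cdk1, the kinase that drives entry into mitosis, was seen in 36.5% and 38.8% of S-only cells and in 95.1% and 98.4% of cells high in both. Ccnb2, a cyclin partner of Cdk1, was seen in 95.8% and 100% of G2/M-only cells.

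**Figure D2:**
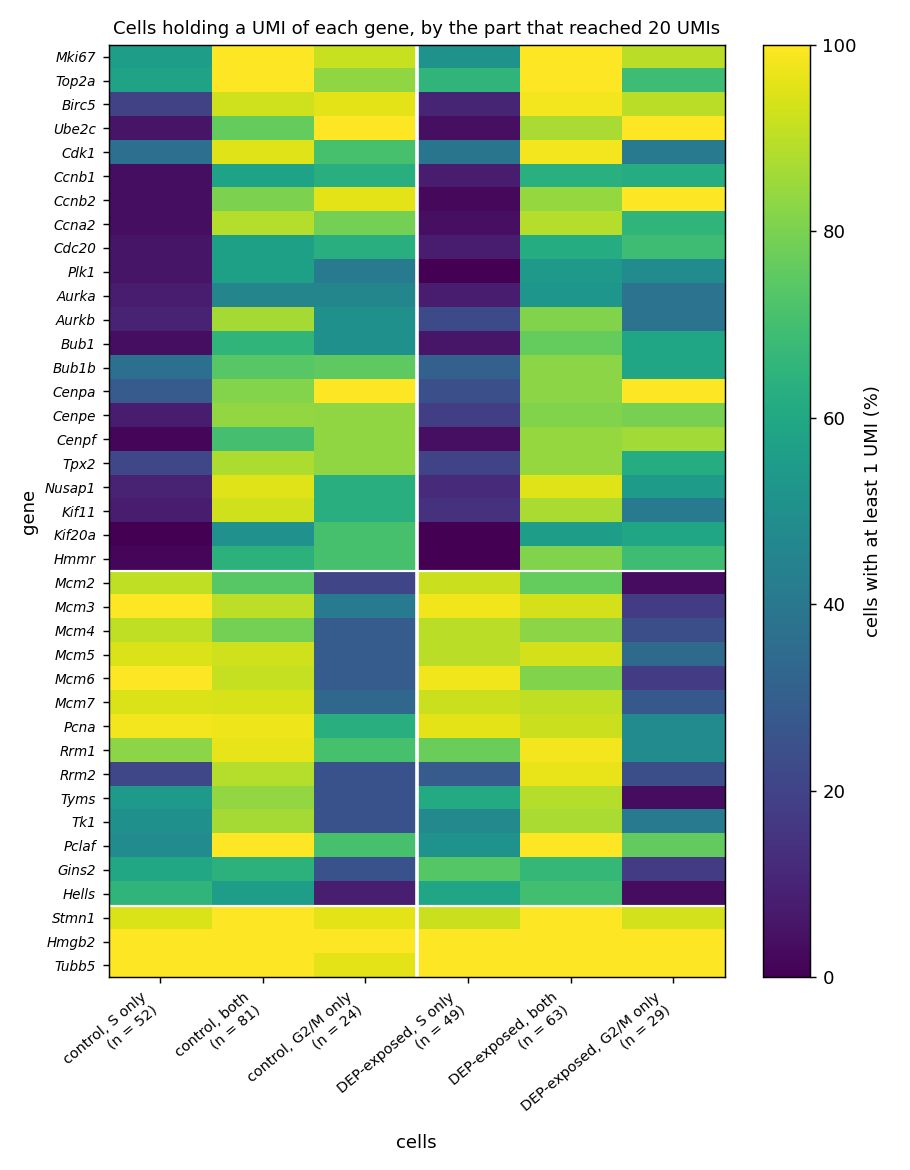
Share of cells with at least 1 UMI of each of the 39 genes (colour, 0 to 100%) in cells where the S part only, both parts or the G2/M part only reached 20 UMIs, for the control library (3 columns on the left) and the exposed library (3 columns on the right). White lines separate the G2/M part, the S part and the 3 broad genes. Mcm genes are high in the S-only columns and Ube2c in the G2/M-only columns of both libraries, and Stmn1, Hmgb2 and Tubb5 are near 100% in every column.

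The genes also differed in how far they were restricted to these cells. Of the Ccna2 UMIs in all kept cells, 97.0% and 98.2% came from the 157 and 141 cells with 20 UMIs or more. The same share was 95.2% and 94.8% for Pclaf and 94.4% and 94.5% for Birc5, which encodes the survivin subunit of the chromosomal passenger complex. Cenpa, the histone variant that marks centromeres, stood apart within the G2/M part. Its UMIs were spread over 2440 and 2384 cells and 18.7% and 15.8% of them came from cells with 20 UMIs or more. In the S part Pcna was the most widespread gene, seen in 1986 and 1767 cells, with 28.2% and 26.1% of its UMIs in cells with 20 or more. Hmgb2, a chromatin protein, was seen in 7694 and 7494 cells.

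Summed over all kept cells, the cell cycle transcripts were lower in the exposed library, and more so for mitosis than for replication. Transcripts of the G2/M part came to 399.6 [394 to 405] and 309 [305 to 314] CPM, a ratio of 0.774 [0.758 to 0.790]. Those of the S part came to 326 [321 to 331] and 277 [273 to 282] CPM, a ratio of 0.851 [0.833 to 0.870]. The 3 broad genes were at 1156 and 1036 CPM, a ratio of 0.896 [0.885 to 0.906]. These levels are shares of all UMIs, and the makeup of the libraries differed. Classical monocytes, with the G2/M part at 81.7 and 76.9 CPM, held 3328347 of 51906306 and 7370646 of 55469535 UMIs. The part of this makeup in the ratios was not tested. Of the 39 genes, 38 had a log2 ratio of exposed to control below 0, as did 9760 of the 14539 genes with at least 20 UMIs in all. The exception was Gins2, a subunit of the replicative helicase, at 0.12 [-0.11 to 0.35].

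The median log2 ratio was -0.33 over the 39 genes, -0.41 over the G2/M part and -0.21 over the S part, beside -0.11 over the 14539 genes with at least 20 UMIs in all. None of the 39 genes was higher and 5 were lower past 1.5-fold, where 2.98% of all genes tested were higher and 6.14% lower. The 5 were Plk1, Ccnb1, Kif20a, Ube2c and Ccna2, all of the G2/M part. Plk1, a kinase of mitotic entry and spindle assembly, had 237 and 150 UMIs and a log2 ratio of -0.75 [-1.06 to -0.45]. Ccnb1, the main mitotic cyclin, had 317 and 206 UMIs and -0.72 [-0.98 to -0.46]. Ube2c and Ccna2 lay just past the limit, both at -0.59. Cenpa, with the most UMIs of the G2/M part, was at 85.8 and 78.0 CPM, a log2 ratio of -0.14 [-0.20 to -0.08].

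Both the median and the count moved with how cells were weighed. With each cell given the same weight, the median log2 ratio of the 39 genes was -0.13 and none was lower past 1.5-fold. Without the cells of 20 UMIs or more it was -0.15, with 3 genes lower and 1 higher. The number lower past 1.5-fold was 1 with doublets kept, 2 with library sizes set by the median of ratios, and 8 with a stricter filter on cells.

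**Figure D3:**
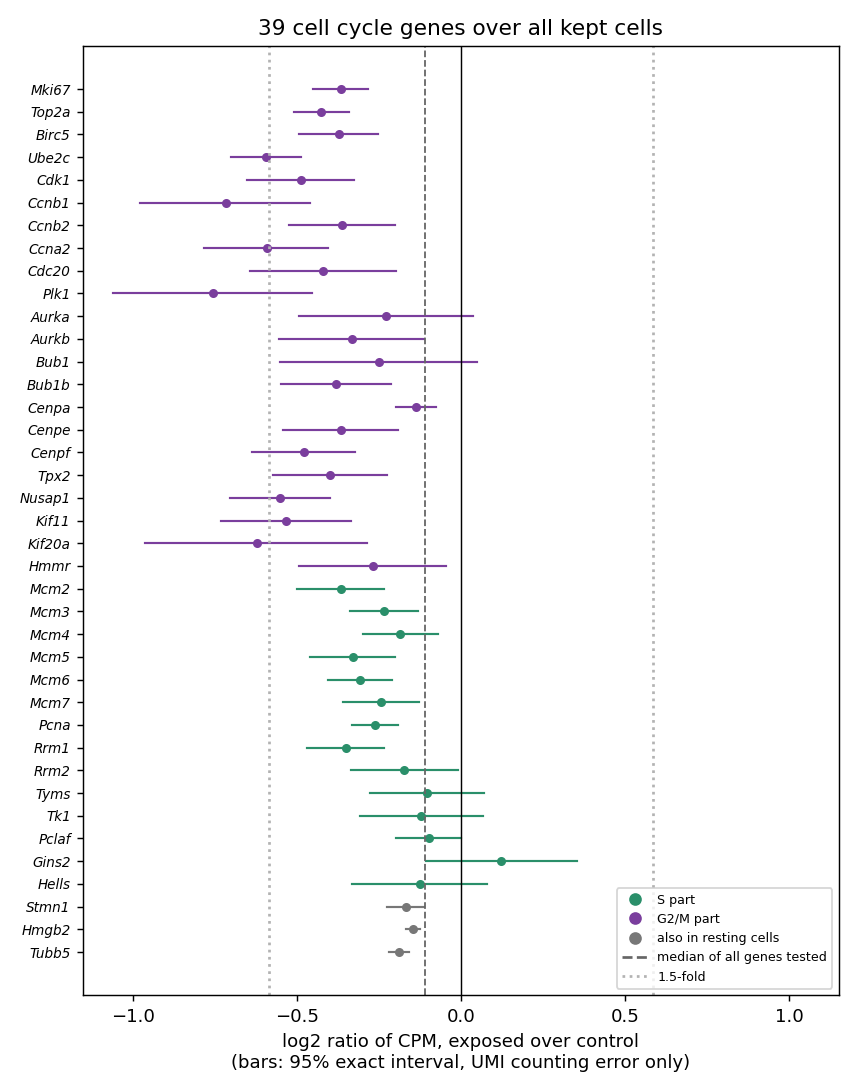
Log2 ratio of CPM, exposed over control, of each of the 39 genes summed over all kept cells, with 95% exact intervals for UMI counting error only. Purple marks the G2/M part, green the S part and grey the 3 broad genes, the dashed line is the median of all genes tested (-0.11) and the dotted lines are 1.5-fold. Gins2 alone lies to the right of 0, and Plk1 and Ccnb1 lie furthest to the left.

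Lists of genes that control or accompany the cycle had medians from -0.35 to 0.03. Of 8 G1 cyclins and CDKs, which carry a cell from rest into S phase, none was higher and 1 was lower past 1.5-fold, with a median log2 ratio of -0.14. The one was Ccne2, at 128 and 87 UMIs and -0.65 [-1.06 to -0.25], and the most abundant, Ccnd2 and Ccnd3, were at -0.19 and -0.02. Of 7 CDK inhibitors, which hold cells at rest, none was past 1.5-fold (median -0.12), and Cdkn1a and Cdkn1b, with the most UMIs, were at -0.12 and -0.02.

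Among 13 Rb, E2F and MuvB regulators Foxm1, which joins MuvB on G2/M promoters, was lower past 1.5-fold at 235 and 163 UMIs and -0.62 [-0.92 to -0.33]. The median of this list was -0.14, and Rb1 and Rbl2, with the most UMIs, were at -0.21 and -0.25. Of 15 genes of origin licensing and replication none was past 1.5-fold (median -0.29, with 14 of 15 below 0), with Slbp and Dut, which had the most UMIs, at -0.11 and -0.08 and Cdt1, a licensing factor, at -0.58. Of 28 genes of the spindle, checkpoint and division none was higher and 1, the checkpoint kinase Ttk, was lower, at 83 and 53 UMIs and -0.74 [-1.27 to -0.23]. The median was -0.35, close to that of the 39 genes, with 27 of 28 below 0, and the most abundant of that list, Cks2 and Smc4, were at -0.06 and -0.24. The 10 chromatin and tubulin genes of growing cells had a median of 0.03, with H2afz at 0.16 and Hmgb1 at 0.03. None of these lists had a gene higher past 1.5-fold and none had more than 1 lower. Of all genes tested, 2.98% were higher and 6.14% lower past 1.5-fold, and 9760 of 14539 were below 0.

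Cells with high sums came from several lineages, and the lineages differed in direction between the libraries. Of the 157 control cells with 20 UMIs or more, 56 were alveolar macrophages (35.7%), 33 T cells (21.0%), 19 type 1 dendritic cells (12.1%), 17 type 2 dendritic cells (10.8%) and 15 NK cells (9.55%). Of the 141 exposed cells, 40 were alveolar macrophages (28.4%), 36 type 1 dendritic cells (25.5%), 16 T cells (11.3%), 16 NK cells (11.3%) and 6 type 2 dendritic cells (4.26%). Type 1 dendritic cells made up 2.11 [1.18 to 3.89] times the control share. B cells gave 6 and 7 cells, interstitial macrophages 4 and 4, unnamed clusters 6 and 10, and the rest came from smaller classes.

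In these 5 classes most high-sum cells carried the markers of their class. Xcr1, a chemokine receptor of type 1 dendritic cells, had a UMI in 94.7% and 94.4% of their high-sum cells. Siglecf had one in 98.2% and 87.5% of those of alveolar macrophages, Cd209a in 94.1% and 100% of those of type 2 dendritic cells, Ncr1 in 93.3% and 100% of those of NK cells, and Cd3e in 100% of those of T cells in both libraries. In type 2 dendritic cells the high-sum cells also held markers of type 1 dendritic cells. Their medians were 57 and 92.5 UMIs of their own markers beside 310 and 271 UMIs of the type 1 markers. Xcr1 had a UMI in 4 of 17 and 1 of 6 of them. Among type 2 dendritic cells below 5 UMIs it had one in 2 of 106 and 4 of 84. High-sum type 1 dendritic cells held medians of 743 and 814 UMIs of these type 1 markers. High-sum interstitial macrophages held 98.5 and 38 and high-sum NK cells 23 and 17, so these markers were not confined to type 1 dendritic cells. The part of this overlap in the results for dendritic cells was not tested. High-sum cells were deeper than cells of the same class below 5 UMIs. In alveolar macrophages their median was 26123 and 21970 UMIs, beside 15649 and 14093. The gap was wider in lymphocytes. In T cells the medians were 17806 and 14330.5, beside 5294.5 and 5968, and in B cells 15960 and 13490, beside 3275 and 3642.

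**Figure D4:**
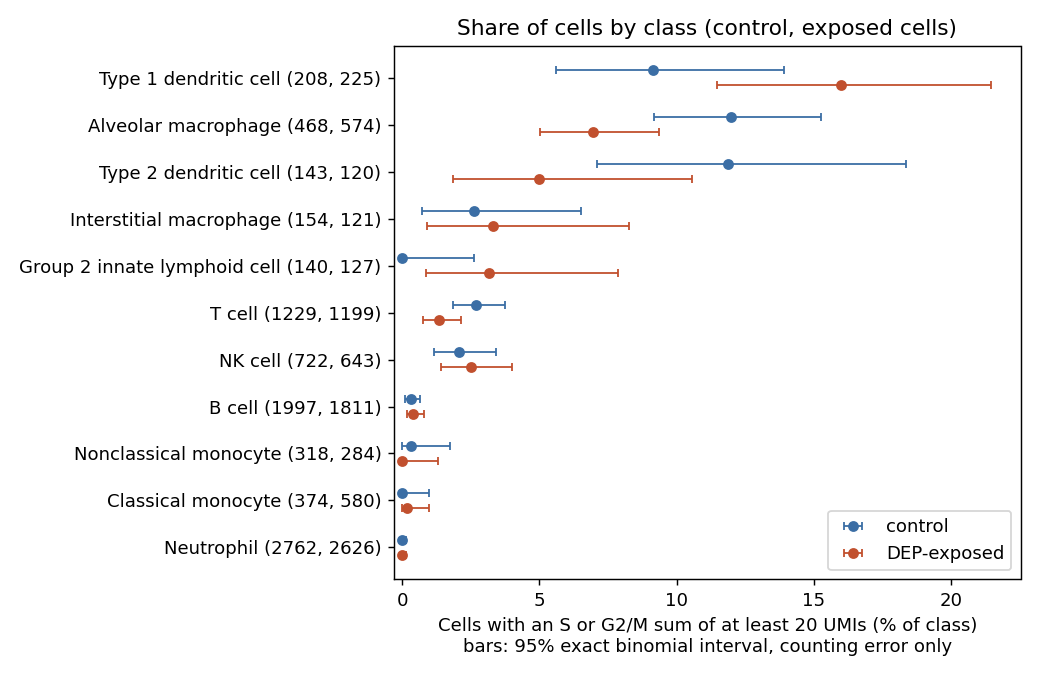
Share of the cells of each class whose S or G2/M sum reached 20 UMIs, in percent, in the control (blue) and exposed (red) library, with 95% exact binomial intervals that cover counting error only and the number of cells of each class in parentheses. Type 1 dendritic cells lie higher in the exposed library, alveolar macrophages, type 2 dendritic cells and T cells lie lower, and neutrophils are at 0 in both.

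Type 1 dendritic cells, which take up dead cells and present their antigens to CD8 T cells, held more high-sum cells in the exposed library, and the summed level of both parts was higher there. A sum of 20 UMIs was reached by 19 of 208 control cells (9.13% [5.59 to 13.9]) and 36 of 225 exposed cells (16% [11.5 to 21.5]), a ratio of 1.75 [0.978 to 3.23]. Of them, 13 and 26 were high in the G2/M part and 6 and 10 in the S part alone. At a limit of 5 UMIs the cells were 60 and 84, a ratio of 1.29 [0.918 to 1.83]. Thinned to 1000 UMIs per cell and counted from 2 UMIs, the shares were 11.8% [7.69 to 17.0] and 19.4% [14.3 to 25.2]. Both ratio intervals at full depth include 1.

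All 39 genes had a log2 ratio above 0 in this class, as did 5026 of the 9346 genes tested in it. Past 1.5-fold 29 were higher and none lower, where 7.95% of all genes tested in the class were higher and 6.63% lower, and the median was 0.88 beside 0.03 over all genes. Summed, mitotic transcripts stood at 554 and 1038 CPM, a ratio of 1.87 [1.77 to 1.98], and those of the S part at 404 and 584 CPM, a ratio of 1.45 [1.35 to 1.55].

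The genes of mitosis led this difference. Cenpf, a kinetochore protein, was at 15.3 and 45.8 CPM, with UMIs in 10 and 25 cells and a log2 ratio of 1.58 [1.12 to 2.08]. Top2a was at 66.3 and 146 CPM (1.14 [0.91 to 1.37]) and Plk1 had 6 and 31 UMIs (2.09 [0.90 to 3.74]). Rrm2, of the S part, was at 14.9 and 38.4 CPM (1.35 [0.88 to 1.87]), whereas the helicase genes Mcm2 and Mcm3 were near level, at 0.06 [-0.41 to 0.54] and 0.08 [-0.23 to 0.39].

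The share of high-sum cells here depended on how the class was drawn. With doublets kept the cells were 22 and 37, and 22 genes were higher past 1.5-fold. When each cell was instead given the class with the most marker UMIs, only 4 and 7 cells stayed type 2 dendritic cells, and type 1 dendritic cells grew to 430 and 461 cells with 36 and 39 above the limit. Their shares were then 8.37% and 8.46%, a ratio of 1.01. That class was wider than the 208 and 225 cells above, so its ratio is not one for the same cells. It cannot say whether the result for those cells holds.

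Type 2 dendritic cells, which present antigen to CD4 T cells, went the other way. A sum of 20 UMIs was reached by 17 of 143 control cells (11.9% [7.08 to 18.4]) and 6 of 120 exposed cells (5.00% [1.86 to 10.6]), a ratio of 0.421 [0.136 to 1.12]. The ratio was 0.535 with doublets kept. At a limit of 5 UMIs the numbers were 37 and 36 cells and the ratio was 1.16 [0.712 to 1.89]. Thinned shares were 14.7% [9.33 to 21.6] and 5.93% [2.42 to 11.8].

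Of 37 genes with enough UMIs in this class, 28 were lower and none higher past 1.5-fold, where 16.5% of all genes tested were lower and 4.21% higher. The median log2 ratio was -1.19 beside -0.11 over all genes, and -0.78 with doublets kept. G2/M transcripts summed to 822 and 333 CPM, a ratio of 0.406 [0.369 to 0.446], and 88.7% of their control UMIs came from the 17 cells. Cenpe, a kinetochore motor, had 71 and 7 UMIs (-2.88 [-4.34 to -1.85]) and Cenpf 77 and 13 UMIs (-2.15 [-3.17 to -1.34]). Rrm2 had 59 and 9 UMIs (-2.28 [-3.54 to -1.32]). Mcm5 was near level here, at 34.4 and 35.2 CPM. With classes by most marker UMIs, 4 and 7 cells were left, of which 1 and 1 reached 5 UMIs.

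T cells, the lymphocytes that recognise presented antigen, held fewer high-sum cells in the exposed library. A sum of 20 UMIs was reached by 33 of 1229 control cells (2.69% [1.86 to 3.75]) and 16 of 1199 exposed cells (1.33% [0.765 to 2.16]), a ratio of 0.497 [0.255 to 0.929]. At 5 UMIs the cells were 101 and 73, a ratio of 0.741 [0.541 to 1.01], and at 3 UMIs the ratio was 1.02. Median depth was 5394 and 6034 UMIs, and thinned shares were 8.13% [6.66 to 9.81] and 5.44% [4.23 to 6.89].

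All 39 genes had enough UMIs in T cells, and 29 were lower and none higher past 1.5-fold, where 7.81% of all genes tested were lower and 2.87% higher. The median log2 ratio was -1.14 beside -0.13 over all genes. In sum, G2/M genes were at 624 and 325 CPM, a ratio of 0.521 [0.496 to 0.547], and the S part at 532 and 363 CPM, a ratio of 0.682 [0.650 to 0.716]. Ube2c was at 51.8 and 13.4 CPM (-1.94 [-2.27 to -1.63]), Nusap1, which bundles spindle microtubules, at 29.5 and 7.57 CPM (-1.96 [-2.41 to -1.54]) and Mki67 at 75.1 and 26.2 CPM (-1.52 [-1.76 to -1.28]). Cenpa, carried by 546 and 604 T cells, was level at 148 and 149 CPM, and Mcm4 was level at 44.5 and 44.4 CPM.

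T cells formed 3 clusters. In the cluster led by Foxp3, Tnfrsf4, Ctla4 and Il4, 28 of 272 control cells and 9 of 221 exposed cells reached 20 UMIs, a ratio of 0.396 [0.164 to 0.862]. In the cluster led by Cd8b1 and Cd8a the numbers were 5 of 495 and 7 of 476, and in the cluster with Cd4 and Igfbp4 among its leading genes there were none of 462 and 502. Markers looked up after these counts were seen showed Cd4 in 24 of the 28 and 5 of the 9 cells, Cd8a in 0 and 2, Foxp3, the regulator of regulatory T cells, in 2 and 2, Ctla4 in 18 and 4 and Il2ra in 8 and 2. Ifng, the cytokine interferon gamma, had a UMI in 14 and 1 and Gzmb, a cytotoxic protease, in 7 and 4. In cells of this cluster below 5 UMIs, Foxp3 had a UMI in 17.7% and 14.6%, Ifng in 24.5% and 25.3% and Gzmb in 17.3% and 21.7%. Over all T cells the high-sum cells were deeper than those below 5 UMIs, with medians of 17806 and 14330.5 UMIs beside 5294.5 and 5968. The detection of these markers was not compared at equal depth.

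The T cell result depended on the clustering. At a finer resolution (1.6 in place of 1) 17 of 1258 and 17 of 1200 T cells reached 20 UMIs, a ratio of 1.05. The cells named T cells were not the same there. A cluster of 120 and 115 cells, with Il4, Art2b and Cd40lg among its leading genes, stayed unnamed and was left out. A cluster of 261 and 233 cells, with Klra6, Cd8a and Tcrg-C2 among its leading genes, was named T cell. The median log2 ratio of the 39 genes was then -0.57, with 19 lower past 1.5-fold.

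Alveolar macrophages, the resident scavengers of the airspaces, were the largest source of cells above 5 and above 20 UMIs in both libraries. That order did not hold at equal depth. Thinned to 1000 UMIs per cell and counted from 2 UMIs, they gave 54 and 50 cells. B cells then gave 103 and 73, T cells 99 and 65 and NK cells 70 and 65. A sum of 20 UMIs was reached by 56 of 468 control cells (12.0% [9.17 to 15.3]) and 40 of 574 exposed cells (6.97% [5.02 to 9.37]), a ratio of 0.582 [0.378 to 0.890]. At 5 UMIs the cells were 161 and 145, a ratio of 0.734 [0.583 to 0.925]. Cells with the S part alone above 20 UMIs numbered 24 and 12, and those with the G2/M part above it 32 and 28. Median depth differed in the same direction, at 17455 and 15321 UMIs, and the thinned shares of 11.8% [8.98 to 15.1] and 8.82% [6.62 to 11.5] had overlapping intervals.

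In alveolar macrophages 7 of the 39 genes were lower and none higher past 1.5-fold, where 5.56% of all genes tested were lower and 2.27% higher. The median log2 ratio was -0.43 beside -0.07 over all genes. With doublets kept it was -0.24 and 1 gene was lower past 1.5-fold. Mcm6 had 287 and 180 UMIs (-0.77 [-1.05 to -0.50]). Kif11, the motor that pushes spindle poles apart, was at 21.3 and 13.1 CPM (-0.69 [-1.04 to -0.35]) and Cenpe at 29.9 and 19.2 CPM (-0.64 [-0.93 to -0.36]). Rrm2, Tyms, which makes thymidylate, and Pclaf had log2 ratios of 0.08, 0.16 and 0.12, with intervals that include 0.

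NK cells, the innate killers of infected cells, had a similar number of high-sum cells, 15 of 722 (2.08% [1.17 to 3.40]) and 16 of 643 (2.49% [1.43 to 4.01]). The ratio was 1.2 [0.555 to 2.60]. Of 35 genes with enough UMIs 9 were higher and 1 lower past 1.5-fold, where 3.99% of all genes tested were higher and 5.57% lower, and the median was 0.29 beside -0.04. Summed G2/M levels were 362 and 491 CPM, a ratio of 1.36 [1.26 to 1.46], and those of the S part 545 and 571 CPM. Birc5 had 41 and 88 UMIs in 13 and 11 cells (1.17 [0.63 to 1.75]), Ccnb2 had 21 and 46 UMIs (1.19 [0.44 to 2.03]) and Nusap1 37 and 66 UMIs (0.91 [0.31 to 1.54]). Of the exposed UMIs of Birc5, 20.5% came from 1 cell.

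Group 2 innate lymphoid cells, which make type 2 cytokines, had few high-sum cells. No control cell of 140 reached 20 UMIs, which allows up to 2.14%, and 4 of 127 exposed cells did (3.15% [0.865 to 7.87]). All 4 held UMIs of Gata3 and Il1rl1 and none held Cd3e. Mki67 had 0 and 49 UMIs, of which 71.4% came from 1 cell, Pclaf 0 and 36, and Stmn1 11 and 141. All G2/M genes together had 23 and 209 UMIs, and 79.4% of the exposed ones came from the 4 cells. Of the 17 genes that passed the limit of 20 UMIs, 15 were higher past 1.5-fold, where 9.54% of all genes tested were higher. Several genes could pass through the exposed library alone, so this count is a description.

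Interstitial macrophages, which sit in the lung tissue around airways and vessels, showed opposite directions for the 2 parts. High-sum cells numbered 4 of 154 and 4 of 121. Their G2/M genes summed to 444 and 143 CPM, a ratio of 0.322 [0.273 to 0.380], and 80.7% of their control UMIs came from the 4 cells. These cells held 409, 233, 10 and 2 of them. The S part was at 229 and 320 CPM, a ratio of 1.40 [1.21 to 1.61]. Of 31 genes tested 15 were lower and 5 higher past 1.5-fold, where 13.7% of all genes tested were lower and 5.95% higher. Cdc20, an activator of the anaphase-promoting complex, had 31 UMIs and 1 UMI, Hmmr 28 and 1 and Bub1b 25 and 1. Tk1, which salvages thymidine, had 23 and 35 (1.14 [0.35 to 1.98]), Pclaf 7 and 18 (1.85 [0.58 to 3.41]) and Pcna 83 and 87 UMIs (0.61 [0.16 to 1.06]). Without the cell with the highest sum in each library, 8 genes were lower and 3 higher.

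In classical monocytes, the cells named in the question of the study, almost no cell had a high sum. None of 374 control cells, which allows up to 0.802%, and 1 of 580 exposed cells reached 20 UMIs, and that cell also held 1169 UMIs of the neutrophil markers. The S part was at 81.7 and 72.3 CPM and the G2/M part at 81.7 and 76.9 CPM. Ube2c nevertheless differed, with 5 UMIs in 3 control cells and 88 UMIs in 57 exposed cells, or 1.50 and 11.9 CPM (2.86 [1.71 to 4.65]). The 1 high-sum cell held 6.82% of the exposed UMIs and the other 82 UMIs lay in cells below the limit. Gins2 had 2 and 20 UMIs (1.89 [0.13 to 5.32]), and Cenpa was lower, at 51.4 and 32.4 CPM (-0.67 [-0.95 to -0.37]). Of 19 genes tested 4 were higher and 3 lower past 1.5-fold, where 8.58% of all genes tested were higher and 9.74% lower. Median depth was 8775.5 and 12344.5 UMIs.

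In nonclassical monocytes, which patrol vessel walls, 1 of 318 control cells and 0 of 284 exposed cells reached 20 UMIs, and 0 cells allow up to 1.06%. Summed G2/M levels were 91.8 and 49.2 CPM, a ratio of 0.536 [0.419 to 0.683], and 32.3% of the control UMIs came from that 1 cell. Stmn1 had 54 and 12 UMIs (-2.14 [-3.23 to -1.27]), Top2a 40 and 12 (-1.72 [-2.82 to -0.80]) and Mki67 35 and 10 (-1.78 [-3.01 to -0.78]). The same control cell held 35.2% of the control UMIs of Stmn1, 25% of those of Top2a and 60% of those of Mki67. Outside it Mki67 had 14 control UMIs. Of 14 genes tested 6 were lower and none higher past 1.5-fold, where 7.65% of all genes tested were lower and 5.69% higher.

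B cells reached 20 UMIs in 6 of 1997 and 7 of 1811 cells (0.300% [0.110 to 0.653] and 0.387% [0.156 to 0.795]). At 5 UMIs the cells were 48 and 34, a ratio of 0.781 [0.488 to 1.24]. Thinned shares were 5.25% [4.31 to 6.33] and 4.05% [3.19 to 5.06]. Summed levels of both parts were lower in the exposed library. Of 37 genes tested 13 were lower and none higher past 1.5-fold, where 6.82% of all genes tested were lower and 2.32% higher, and the median was -0.37 beside -0.14. Nusap1 had 56 and 24 UMIs (-1.19 [-1.96 to -0.50]), Cdk1 33 and 12 (-1.41 [-2.53 to -0.46]) and Cenpf 48 and 23 (-1.03 [-1.83 to -0.30]). A single cell held 54.2% of the control UMIs of Cenpf and 48.5% of those of Cdk1.

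Neutrophils had the lowest summed level of the S part among the 11 classes in both libraries. The S part was at 38.1 and 23.6 CPM and the G2/M part at 51.6 and 47.3 CPM. Of 12 genes tested 5 were lower and none higher past 1.5-fold, where 10.8% of all genes tested were lower and 4.92% higher. Pcna had 167 and 96 UMIs (-0.88 [-1.26 to -0.51]), Aurka, a spindle pole kinase, 37 and 19 (-1.03 [-1.92 to -0.21]) and Tubb5 165 and 101 (-0.79 [-1.16 to -0.42]). Hmgb2 was common in neutrophils, with UMIs in 2374 and 2317 of them and a log2 ratio of 0.01. Neutrophil clusters differed in size between the libraries, with 1286 and 534 cells in the cluster with Il1r2 and 395 and 1006 in the cluster led by Rsad2 and Ifit1.

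**Figure D5:**
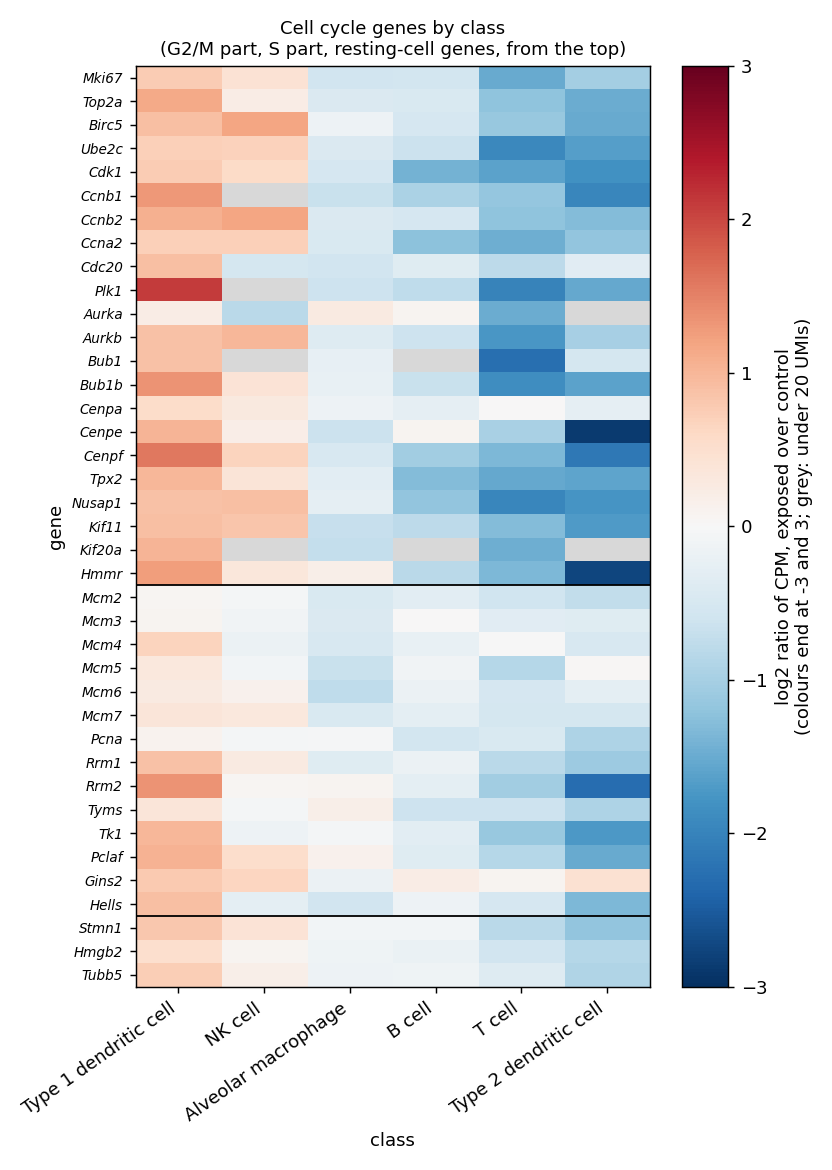
Log2 ratio of CPM, exposed over control, of the 39 genes (rows) in 6 classes (columns), red for higher and blue for lower in the exposed library, with grey where both libraries together held under 20 UMIs. Black lines separate the G2/M part, the S part and the 3 broad genes. The column of type 1 dendritic cells is red throughout, those of T cells and type 2 dendritic cells are mostly blue, with Cenpa, Mcm4 and Gins2 near level in T cells and Mcm5 near level in type 2 dendritic cells.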

How the data were processed

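Single-cell RNA of sorted CD45+ lung cells was measured with the 10x Genomics 3′ kit v3.1, per the labels' protocols, in 1 control and 1 exposed library. The authors deposited raw UMI counts per gene and barcode. Cell Ranger 3.1.3 and mm10 are named in the submitters' processing notes, while the file headers give 3.1.0. The annotation release is not given in the sources used here. The members and gene lists were chosen with earlier results of these data known.

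Barcodes with at least 500 UMIs, 200 genes and at most 10% mitochondrial UMIs were kept (9691 and 9396). Doublets were scored per library against 2 simulated doublets per cell, and the top-scoring 751 and 706 cells were removed, at a rate of 0.8% for every 1000 cells. Of those removed, 20.4% and 16.9% had a part sum of 5 UMIs or more. For clustering, cells were brought to 10000 UMIs and logged. With 2000 variable genes that held no cell cycle gene, 30 principal components and 20 neighbours, cells were clustered by leidenalg 0.10.2 at resolution 1 without batch correction. A cluster was named from at least 3 markers of a class among its 50 leading genes, and 4 clusters stayed unnamed. Comparisons were limited to classes of 50 or more cells per library.

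Counts were summed per library and class and given as CPM, whose intervals are exact Poisson ones. Log2 ratios had 0.5 counts added and exact conditional binomial intervals, and genes with a summed count of 20 or more were used (called tested above). Shares carry Clopper-Pearson intervals, and a share of 0 was limited by 3 counts. Ratio intervals were checked on simulated data with independent UMIs. That check cannot show whether they hold for UMIs gathered in few cells. Genes named by class are the 3 highest and 3 lowest by the interval bound nearest to 0 past 1.5-fold, and other members were added beside them after their values were seen. From each pathway list the 2 most abundant genes and those past 1.5-fold were named, and Cdt1 was added after its value was seen. The limit of 20 UMIs and 6 alternatives were added after the data were seen. Printed promoter positions are RefSeq's. Python 3.11.15, numpy 2.4.6 and scipy 1.17.1 were used.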

Additional observations from a re-analysis of the deposited data

Results flagged for a closer look

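The summed G2/M part differed in direction between classes under the same contrast. The ratio of exposed to control was 9.17 in group 2 innate lymphoid cells and 1.87 in type 1 dendritic cells, with intervals above 1. It was 0.760 in alveolar macrophages, 0.536 in nonclassical monocytes, 0.521 in T cells and 0.406 in type 2 dendritic cells, with intervals below 1. In these classes the S part differed in the same direction and the share at 20 UMIs did not oppose it. Outside this rule the G2/M ratio was 0.322 [0.273 to 0.380] in interstitial macrophages. It was 0.761 [0.713 to 0.811] in B cells and 1.36 [1.26 to 1.46] in NK cells. With 1 library per group the difference between classes was not tested. These intervals treat UMIs as independent and are too narrow. In group 2 innate lymphoid cells 4 cells held 79.4% of the exposed UMIs. In nonclassical monocytes 1 cell held 32.3% of the control UMIs. For the share of cells at 20 UMIs, the interval of the ratio left out 1 in alveolar macrophages and T cells. It included 1 in the other classes named here.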

How the results depend on the processing

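Of 233 values under 27 alternatives for 33 results, 190 stayed within the counting interval or within 1.5 times the main value, and 43 moved. No ratio crossed 1 where its interval at the limit of 5 UMIs left out 1, and no median changed sign. Ratios of S-only, B, T and type 2 dendritic cells did cross 1, and the T cell ratio at 20 UMIs, whose interval leaves out 1, crossed it at resolution 1.6. No paired analysis was possible because each group held 1 library. Over all cells the ratio of S-only cells was 1.25 at a limit of 10 UMIs. With 1 UMI of a part per 1000 the ratios were 0.808 for high-sum, 0.815 for S-only and 0.801 for G2/M cells, and thinning gave 0.864 for high-sum cells. The median log2 ratio of the members was -0.13 with equal weight per cell and -0.15 without the cells of 20 UMIs or more. Members lower past 1.5-fold were 0 with equal weights, 3 without cells of 20 UMIs or more, 2 with the median of ratios, 8 under stricter cell filtering and 1 when doublets stayed in. Members higher were 1 without those cells and 1 without the top 1% of cells. At the limit of 20 UMIs, by class, the ratio was 0.582 in alveolar macrophages by cluster and by most marker UMIs, and 0 in nonclassical monocytes under all 5 settings. In B cells it was 1.29, and 1.32 with doublets kept. In T cells it was 0.497, 1.05 at Leiden resolution 1.6 and, at a limit of 3 UMIs, 1.02. In type 2 dendritic cells it was 0.421, 0.535 with doublets kept and, at a limit of 5 UMIs, 1.16. By most marker UMIs it was 0.571, from 1 of 4 and 1 of 7 cells. The share of all high-sum cells had ratios of 0.540 for T cells (1.11 at resolution 1.6), 2.11 for type 1 dendritic cells and 0.393 for type 2 dendritic cells (0.489 with doublets kept). At resolution 0.6 and 1.6 the values for dendritic and B cells were the same. The median of the members in T cells was -0.57 at resolution 1.6, where the cells named T cells were not the same. The cause of these shifts was not tested. Few cells above the limit, such as 4 of 154 and 4 of 121 interstitial macrophages, make ratio intervals wide.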

Other observations

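Outside the members and the pathway lists, 8942 genes were ranked by their CPM in cells with a part sum of 5 UMIs or more over other cells of the same class makeup, by the lower of both libraries. The 10 highest were Pimreg, Pbk, Mxd3, Esco2, Kntc1, Neil3, Kif4, Aspm, Iqgap3 and Melk. Aspm, a spindle pole protein, was at 25.3 CPM in high-sum cells and 0.254 in others in the control, and at 19.8 and 0.268 in the exposed library. These genes were not used in the sums that chose the cells. Among the unnamed clusters, the one led by Klra6, Tcrg-C2 and Trdc held 3 of 150 control and 6 of 117 exposed cells with 20 UMIs or more.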
